A study of Ovis aries with 32 samples.

Results

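Genes of prostaglandin synthesis, reception and breakdown were followed across 4 fat depots of sheep, 10 in all: PTGS1, PTGS2, PTGES, PTGIS, PTGDS, PTGER3, PTGER4, PTGIR, PTGFR and HPGD. They were taken by symbol from a deposited table of 28524 genes, which held all 10 of them. Messenger RNA was sequenced from its 3′ end, so that counts were used without a length correction and levels are compared for the same gene between libraries, not between genes. All sheep were female. In the testosterone group, 4 daughters (sheep 48, 185, 233 and 255) came from ewes given intramuscular injections of 100 mg testosterone propionate (1.2 mg/kg, in 2 ml corn oil) 2 times weekly between gestation days 30 and 90, and 4 control daughters (sheep 98, 131, 132 and 201) came from ewes of the control arm. Daughters of both groups were kept together on a maintenance diet, were ovariectomized when the second breeding season ended, and carried a 1 cm estradiol implant. They then received 2 progesterone implants for 14 days and 4 estradiol implants of 30 mm for the last 18 h, so that every level below was measured under the same supplied estradiol. Each sheep gave 4 depots: visceral fat from the mesentery at the rumen, fat from under the skin of the sternum, called subcutaneous below, perirenal fat, and epicardial fat from the heart's surface. This makes 32 libraries, 4 for each combination of depot and treatment. The animal was the replicate.

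Prostaglandins are local signals made from arachidonic acid. The cyclooxygenases PTGS1 (COX-1) and PTGS2 (COX-2) form prostaglandin H2, and terminal synthases turn it into prostaglandin E2 (PTGES), prostacyclin (PTGIS) or prostaglandin D2 (PTGDS). Receptors on the cell surface read these products: PTGER3 and PTGER4 both bind prostaglandin E2, but PTGER3 couples to Gi and lowers cyclic AMP, whereas PTGER4 couples to Gs and raises it. PTGIR, the prostacyclin receptor, also couples to Gs, and PTGFR, the prostaglandin F2α receptor, to Gq. HPGD (15-hydroxyprostaglandin dehydrogenase) begins their breakdown. In fat cells, prostaglandin E2 acting through PTGER3 is known to restrain the hydrolysis of stored fat, and prostacyclin is known to favour the differentiation of fat cell precursors.

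Total counts per library ran from 784135 to 8267820. The subcutaneous library of testosterone sheep 48 had the lowest total, and a list of nuclear and intron-rich RNAs summed there to 47760 CPM (read counts scaled to a common library total). The same list summed to 44527 CPM in visceral fat of testosterone sheep 255. The fat cell marker ADIPOQ was detected in every library, but the summed fat cell markers of control sheep were lower in epicardial fat (7107 to 19315 CPM) than in the other 3 depots (27233 to 53668 CPM), and the summed fibroblast markers were higher there (5385 to 6971 CPM against 2707 to 4225 CPM). Heart muscle transcripts summed to 15017 CPM in the epicardial library of control sheep 98 and to 23558 CPM in that of testosterone sheep 48. HOXC6, a gene of trunk position, was at 0 to 2.17 CPM in 7 epicardial libraries but at 95.5 CPM in the library labelled epicardial of testosterone sheep 255, within the 75.5 to 111 CPM of visceral fat. The subcutaneous library of the same sheep held 126 CPM of HOXC6, against 186 to 230 CPM in the other 7 subcutaneous libraries. Depot results of testosterone sheep were therefore also computed without that library, the visceral library of sheep 255 and the subcutaneous library of sheep 48. The subcutaneous library of sheep 255 stayed in that fit, and fits without sheep 255 as a whole were run beside it. Counts of sheep given below use every library as labelled, with those of sheep 48 and 255 included. In such bulk tissue, fewer cells of a type and less RNA per cell cannot be told apart.

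The depot was where these genes differed. In control sheep, 8 of the 10 genes differed between depots at a false discovery rate (FDR) under 0.05, in a joint edgeR quasi-likelihood test of the depots with the sheep as a block, where 39.9% of all 13369 genes tested did so. PTGER4 (adjusted p = 1.39e-05) and PTGIR (3.65e-05) had the smallest adjusted p of the 10. The 2 genes that did not pass were PTGES (adjusted p = 0.381) and PTGFR (0.0753). In the testosterone sheep, which are other animals, PTGIR, PTGDS, PTGER4, PTGFR and PTGER3 passed the same test, 5 of 10 against 4.82% of all genes. The share of genes that passed was lower in testosterone sheep over all genes too, and a difference between the treatments in the depot pattern was tested separately with the interaction described further on.

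**Figure D1:**
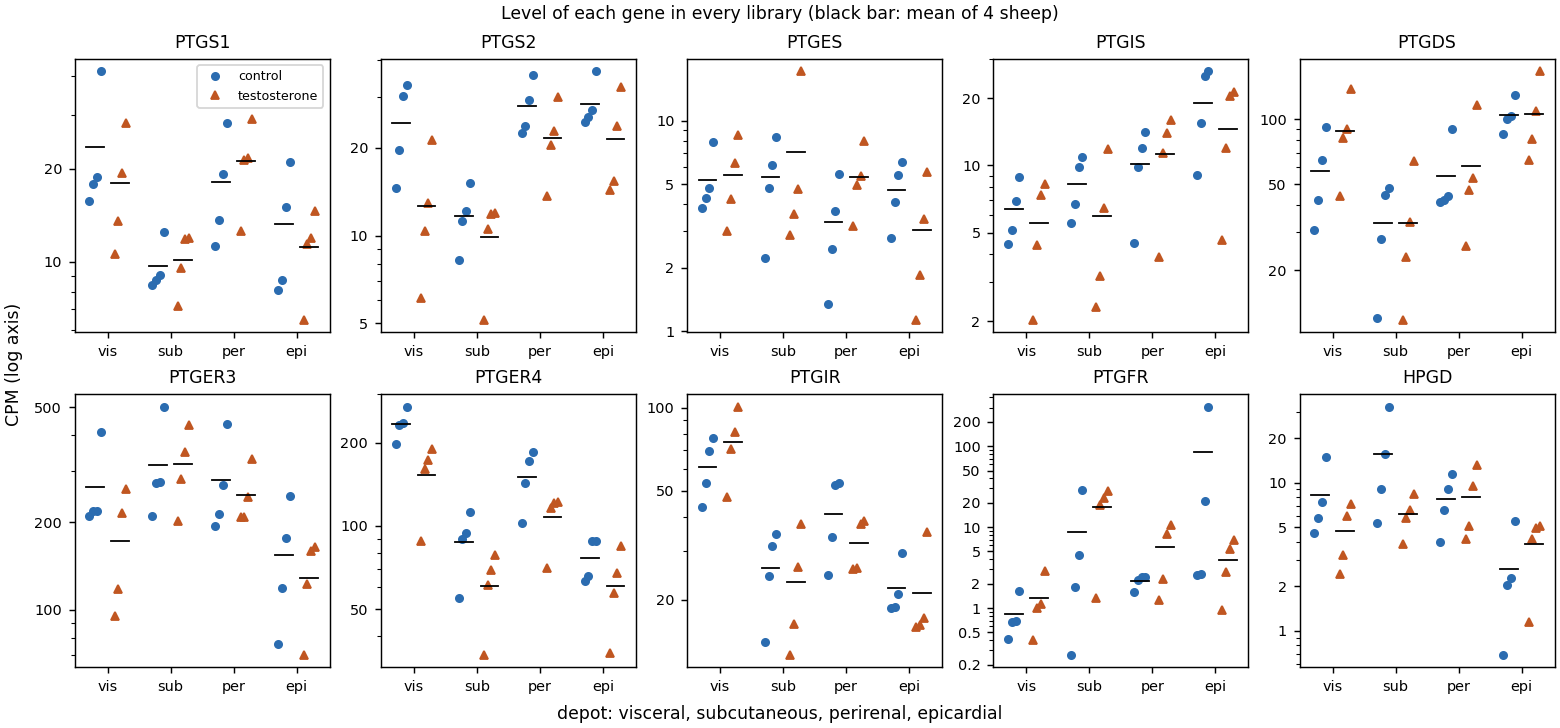
Level of each of the 10 genes in every library, in CPM on a log axis, by depot (vis, visceral; sub, subcutaneous; per, perirenal; epi, epicardial), with control sheep as circles, testosterone sheep as triangles and a black bar at the mean of 4 sheep. PTGER4 and PTGIR are highest in visceral fat in both treatments, and 1 control library stands at 308 CPM of PTGFR in epicardial fat.

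PTGS1 and PTGS2, the enzymes at the head of the pathway, had their lowest means in subcutaneous fat. PTGS1 stood at 18.9, 17.9, 41.4 and 15.7 CPM in visceral fat of control sheep 98, 131, 132 and 201, and at 8.39, 9.03, 12.5 and 8.73 CPM in their subcutaneous fat. The groups did not overlap, and the difference was 1.19 ± 0.21 (log2, SE; adjusted p = 0.00173). Perirenal fat held 18.1 ± 7.53 CPM of PTGS1 (SD, n = 4) and also exceeded subcutaneous fat (subcutaneous minus perirenal log2 −0.83 ± 0.21, adjusted p = 0.0106). Epicardial fat, at 13.2 ± 6.08 CPM (n = 4), was below visceral fat by a log2 difference of 0.79 ± 0.21 (adjusted p = 0.0118). That last call was lost when sheep 98, 131 or 132 was left out, and the subcutaneous to perirenal call when sheep 132 was. PTGS1 in subcutaneous fat was not separated from epicardial fat, being lower in 2 of 4 control sheep. The subcutaneous minus epicardial difference was −0.41 ± 0.22 in control and −0.19 ± 0.35 in testosterone sheep (adjusted p = 0.206 and 0.837).

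PTGS2, the inducible cyclooxygenase, stood at 11.3, 15.1, 8.26 and 12.2 CPM in subcutaneous fat of control sheep 98, 131, 132 and 201. Their perirenal fat had 29.3, 23.9, 35.6 and 22.6 CPM, and their epicardial fat 24.6, 25.5, 36.6 and 26.9 CPM. Every perirenal and epicardial value lay above every subcutaneous one. The differences were −1.19 ± 0.24 from perirenal fat (adjusted p = 0.00212) and −1.26 ± 0.24 from epicardial fat (adjusted p = 0.00106). Visceral fat, at 24.3 ± 8.68 CPM (SD, n = 4), exceeded subcutaneous fat by 0.98 ± 0.24 (log2; adjusted p = 0.0121), a call that was lost without sheep 98 or sheep 132. In testosterone sheep PTGS2 in subcutaneous fat was again below both the perirenal and the epicardial level in 4 of 4 sheep, but the differences of −1.10 ± 0.37 and −1.21 ± 0.38 did not pass (adjusted p = 0.126 and 0.0852). PTGS1 likewise was lower in subcutaneous than in perirenal fat in 4 of 4 testosterone sheep (−1.06 ± 0.33, adjusted p = 0.107).

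Of the 3 terminal synthases, PTGIS and PTGDS had their highest means in epicardial fat, and PTGES differed between no pair of depots. In control sheep PTGS2 shared its highest and lowest depot, epicardial and subcutaneous fat, with PTGDS. Its epicardial mean (28.4 CPM) was close to its perirenal mean (27.8 CPM). PTGIS, which makes prostacyclin, stood at 9.05, 15.5, 26.4 and 25.3 CPM in epicardial fat of control sheep 98, 131, 132 and 201. It had 5.14, 6.90, 8.92 and 4.44 CPM in visceral fat and 5.51, 9.82, 10.9 and 6.73 CPM in subcutaneous fat of the same animals. Within each of the 4 sheep epicardial fat was highest, and it was higher than visceral, subcutaneous and perirenal fat by 1.56 ± 0.25, 1.20 ± 0.25 and 0.96 ± 0.24 on the log2 scale. The adjusted p were 0.000352, 0.00256 and 0.00904, and the last was lost without sheep 201. In testosterone sheep the mean was highest in epicardial fat as well, at 14.6 ± 7.86 CPM (n = 4) against 5.52 ± 2.85 CPM in visceral fat, with no difference past the threshold. Without the 3 libraries named above, the subcutaneous minus epicardial difference of PTGIS in testosterone sheep went from −1.49 (adjusted p = 0.205) to −2.47 (adjusted p = 0.0234).

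PTGDS, which makes prostaglandin D2 and is also a carrier of lipids outside the cell, had its highest mean in epicardial fat and its lowest in subcutaneous fat. In control sheep 98, 131, 132 and 201 it stood at 101, 130, 85.6 and 104 CPM in epicardial fat and at 12, 44.6, 48.0 and 28.0 CPM in subcutaneous fat. In testosterone sheep 48, 185, 233 and 255 the epicardial values were 64.9, 167, 110 and 81.6 CPM and the subcutaneous values 11.8, 64.2, 33.6 and 23.1 CPM. In 8 of 8 sheep epicardial fat exceeded both subcutaneous and perirenal fat. The subcutaneous minus epicardial difference was −1.78 ± 0.27 in control sheep (adjusted p = 0.000287) and −1.80 ± 0.31 in testosterone sheep (adjusted p = 0.00538), the latter lost without sheep 233. Control sheep also differed between epicardial and visceral fat (visceral minus epicardial −1.02 ± 0.26, adjusted p = 0.0112) and between epicardial and perirenal fat (perirenal minus epicardial −1.06 ± 0.26, adjusted p = 0.00858), and both calls were lost without sheep 201. In testosterone sheep the same differences were −0.22 ± 0.30 and −0.95 ± 0.30 and did not pass (adjusted p = 0.812 and 0.101). Sheep 255 had 139 CPM of PTGDS in visceral fat, above its epicardial value. Visceral exceeded subcutaneous fat in 8 of 8 sheep, with a call in testosterone sheep (1.58 ± 0.31, adjusted p = 0.0284) that fell to 1.02 (adjusted p = 0.0668) without the subcutaneous library of sheep 48 and the visceral and epicardial libraries of sheep 255. That call was also lost without sheep 48, 233 or 255 as a whole.

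PTGES, which makes prostaglandin E2, differed between no pair of depots. Its control means lay between 3.29 ± 1.83 CPM in perirenal fat and 5.40 ± 2.58 CPM in subcutaneous fat (SD, n = 4 each). The gene rested on 4 to 58 counts per library, so that the SE of a depot difference in control sheep was 0.37 to 0.39 on the log2 scale. The highest value, 17.1 CPM, was subcutaneous, in testosterone sheep 48, and came from 13 counts.

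**Figure D2:**
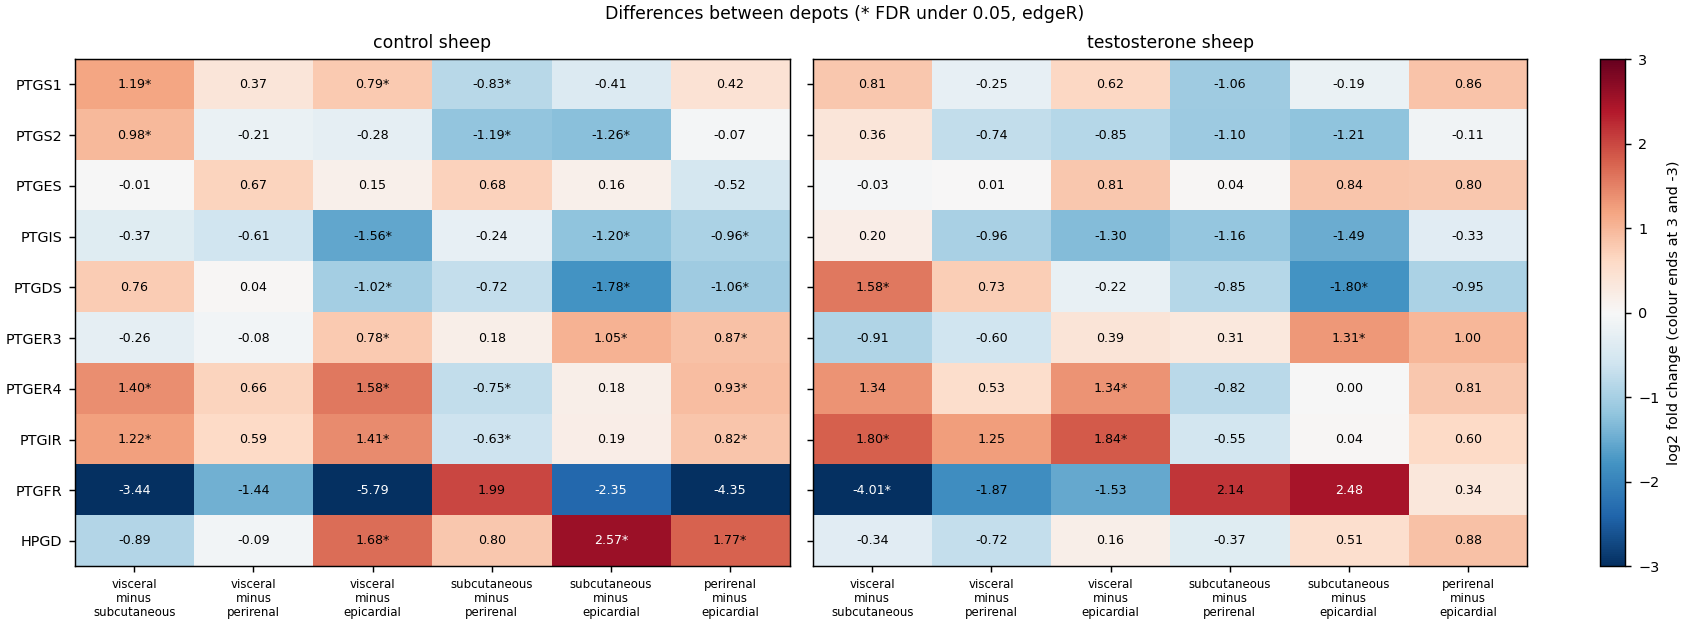
Log2 fold change of each gene between each pair of depots in control sheep (left) and testosterone sheep (right), from edgeR fits with the sheep as a block, where red means higher in the depot named above, blue means lower, and an asterisk marks an FDR under 0.05. PTGER4 and PTGIR are red in the visceral columns of both panels, and PTGDS and PTGIS are blue wherever epicardial fat is subtracted. On the right, PTGDS has an asterisk among these only for subcutaneous minus epicardial fat, and PTGIS has none.

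Among the receptors, PTGER4 and PTGIR, both coupled to Gs, were highest in visceral fat. PTGER4 stood at 271, 198, 232 and 236 CPM in visceral fat of control sheep 98, 131, 132 and 201. Perirenal fat had 185, 102, 143 and 172 CPM, subcutaneous fat 93.9, 90.0, 54.9 and 112 CPM, and epicardial fat 65.9, 62.9, 88.2 and 88.1 CPM. Visceral values overlapped with none of the other depots. They were higher than in subcutaneous fat by 1.40 ± 0.18 (log2; adjusted p = 0.000141) and than in epicardial fat by 1.58 ± 0.18 (adjusted p = 1.63e-05). The step from visceral to perirenal fat, 0.66 ± 0.18, did not pass (adjusted p = 0.108), and perirenal fat in turn exceeded subcutaneous fat (subcutaneous minus perirenal −0.75 ± 0.18, adjusted p = 0.00691) and epicardial fat (0.93 ± 0.18, adjusted p = 0.00163). Subcutaneous and epicardial fat differed by 0.18 ± 0.18 (adjusted p = 0.52).

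Testosterone sheep had the same order at the top. Their visceral PTGER4 was 161, 174, 190 and 88.3 CPM in sheep 48, 185, 233 and 255, and their epicardial PTGER4 was 34.7, 67.3, 57.0 and 84.3 CPM. The difference of 1.34 ± 0.30 passed (adjusted p = 0.0341) but was lost without sheep 48, 185 or 233. From subcutaneous fat the difference was 1.34 ± 0.30 as well, with an adjusted p of 0.0557, which became 0.022 without the 3 libraries named above. Visceral and perirenal fat each exceeded subcutaneous and epicardial fat in 8 of 8 sheep. In sheep 255 the visceral value (88.3 CPM) was close to that of the library labelled epicardial (84.3 CPM).

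PTGIR, the prostacyclin receptor, was higher in visceral fat than in each other depot in 8 of 8 sheep. It stood at 69.7, 77.4, 43.5 and 53.5 CPM in visceral fat of control sheep 98, 131, 132 and 201 and at 70.8, 47.5, 101 and 81.8 CPM in that of testosterone sheep 48, 185, 233 and 255. Subcutaneous fat had 24.4, 34.8, 14.1 and 31.3 CPM in control sheep and 26.3, 12.6, 16.3 and 37.6 CPM in testosterone sheep. In neither treatment did these 2 depots overlap. The visceral minus subcutaneous difference was 1.22 ± 0.18 in control sheep (adjusted p = 0.000373) and 1.80 ± 0.26 in testosterone sheep (adjusted p = 0.00511), the latter lost without sheep 185 or 233. From epicardial fat, at 22.0 ± 5.16 CPM (control, n = 4) and 21.2 ± 9.45 CPM (testosterone, n = 4), the difference was 1.41 ± 0.18 (adjusted p = 3.90e-05) and 1.84 ± 0.26 (adjusted p = 0.0057), the latter lost without sheep 185 or 233. Perirenal fat of control sheep, at 41.1 ± 14.1 CPM, lay between: it exceeded epicardial fat by 0.82 ± 0.18 (adjusted p = 0.00344) and subcutaneous fat (subcutaneous minus perirenal −0.63 ± 0.18, adjusted p = 0.0167, lost without sheep 98 or 131). PTGIR overlaps CALM3 in the RefSeq gene table, and with no stated strand setting the reads of the pair cannot be told apart where they overlap. CALM3, a calmodulin gene, had its highest control mean in epicardial fat (58.1 ± 10.1 CPM), where PTGIR had its lowest. In visceral, perirenal and subcutaneous fat of control sheep it stood at 46.1 ± 9.19, 44.5 ± 4.57 and 36.4 ± 3.76 CPM, the same order as PTGIR. In testosterone sheep its means were 46.6, 60.9, 41.5 and 60.6 CPM in visceral, perirenal, subcutaneous and epicardial fat. The part of CALM3 reads in the PTGIR counts was not tested.

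Marker sums of other cell types moved with these differences. T and NK cell markers (9 of 10 listed genes in the table) and mesothelial markers (9 of 9, with CALB2 at 0 in every library) were lowest in control subcutaneous fat, where the means of PTGS1 and PTGS2 were lowest too. They summed there to 12.9 to 27.9 CPM and 10.3 to 35.5 CPM, whereas visceral, perirenal and epicardial fat had 41.2 to 111 CPM and 102 to 202 CPM. Single mesothelial markers were uneven. WT1 had control means of 110, 78.7 and 62.3 CPM in visceral, perirenal and epicardial fat and 1.36 CPM in subcutaneous fat. MSLN, UPK3B and LRRN4 were near 0 throughout, with at most 0.301, 2.71 and 2.75 CPM in any library. Summed macrophage markers moved with PTGER4, PTGIR and PTGS1 across the control depots. They ran from 615 to 745 CPM in visceral fat and from 539 to 686 CPM in perirenal fat, against 321 to 471 CPM in subcutaneous and 313 to 540 CPM in epicardial fat, with 9 of the 11 listed genes in the table and none of those 9 at 0 in all libraries. In testosterone sheep the macrophage sums overlapped between all depots. They were 320 to 739, 448 to 675, 360 to 483 and 265 to 507 CPM in visceral, perirenal, subcutaneous and epicardial fat (medians 540, 515, 411 and 350 CPM). The part of these cells in the depot differences was not tested.

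PTGER3, which couples to Gi, had its lowest mean in epicardial fat, where PTGDS and PTGIS had their highest. It stood at 76.3, 119, 246 and 176 CPM there in control sheep 98, 131, 132 and 201. The same sheep had 210, 219, 411 and 218 CPM in visceral fat, 211, 274, 502 and 277 CPM in subcutaneous fat, and 270, 195, 438 and 215 CPM in perirenal fat. The depots overlapped across animals because sheep 132 was high throughout, whereas within every control sheep epicardial fat was the lowest. With the sheep as a block, PTGER3 was higher than in epicardial fat by 0.78 ± 0.18 in visceral, 1.05 ± 0.18 in subcutaneous and 0.87 ± 0.18 in perirenal fat (adjusted p = 0.00469, 0.000463 and 0.0025). Without the block, the adjusted p were 0.184, 0.0656 and 0.127. In testosterone sheep subcutaneous fat exceeded epicardial fat by 1.31 ± 0.27 (adjusted p = 0.0138), a call lost without sheep 185 or 233. Their visceral minus epicardial (0.39 ± 0.27) and perirenal minus epicardial (1.00 ± 0.27) differences did not pass (adjusted p = 0.546 and 0.0742). Sheep 255 had less PTGER3 in visceral (95.2 CPM) than in epicardial fat (123 CPM). Subcutaneous fat also exceeded visceral fat in 8 of 8 sheep, by amounts that passed in neither treatment (visceral minus subcutaneous −0.26 ± 0.18 in control and −0.91 ± 0.27 in testosterone sheep, adjusted p = 0.339 and 0.163).

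In control sheep, epicardial fat had lower fat cell and higher fibroblast marker sums than the other depots. Its endothelial marker sums were lower too (697 to 785 CPM, against 917 to 1118 CPM in visceral, subcutaneous and perirenal fat, 9 of 9 genes). These control sums moved with the low PTGER3 and HPGD and the high PTGDS and PTGIS of that depot. Single fat cell markers did not all follow the sum. ADIPOQ had a control mean of 5805 CPM in epicardial fat and 9707 to 14485 CPM in the other depots. PLIN1 went the other way, with 58.1 CPM in epicardial and 43.8, 50.5 and 47.4 CPM in visceral, subcutaneous and perirenal fat, and its ranges overlapped. In testosterone sheep the fibroblast ranges overlapped. The epicardial median (4301 CPM) was below perirenal (5448 CPM) but above visceral (3324 CPM) and subcutaneous fat (2685 CPM). Their fat cell sums overlapped between epicardial and visceral fat through sheep 255 (26807 CPM epicardial, 8213 CPM visceral). The part of these cells in the depot differences was not tested.

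Since both receptors for prostaglandin E2 were read in the same libraries, the log2 of PTGER3 over PTGER4 was taken in each, and it is set only against itself between depots. In control sheep it was 0.12 ± 0.51 in visceral fat (SD, n = 4), and subcutaneous, perirenal and epicardial fat had 1.82 ± 0.93, 0.85 ± 0.57 and 0.90 ± 0.52. In testosterone sheep it was 0.11 ± 0.56, 2.39 ± 0.63, 1.22 ± 0.35 and 1.08 ± 0.87 in the same order of depots. The ratio was thus lowest in visceral fat, where PTGER4 was highest, and highest in subcutaneous fat. The visceral and subcutaneous ranges did not overlap in either treatment: −0.36 to 0.83 against 1.17 to 3.19 in control sheep, and −0.68 to 0.58 against 1.54 to 3.05 in testosterone sheep. The ratio was computed after the values of both genes were known and carries no test.

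**Figure D3:**
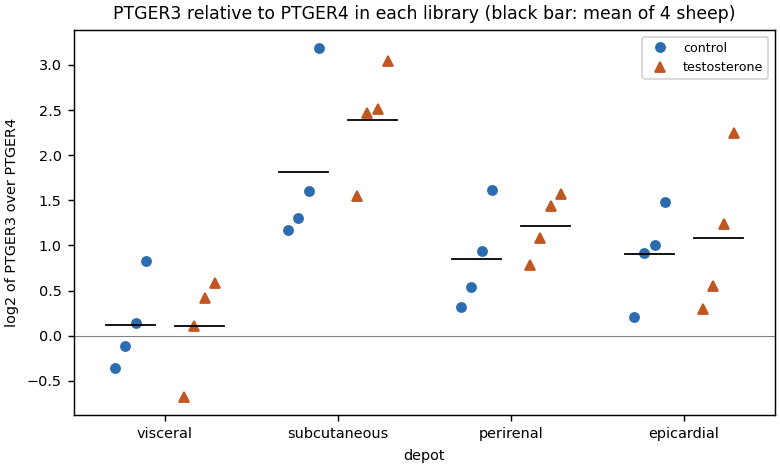
Log2 of the PTGER3 level over the PTGER4 level in each library by depot, with control sheep as circles, testosterone sheep as triangles and a black bar at the mean of 4 sheep. Visceral libraries lie between −0.68 and 0.83, and subcutaneous libraries between 1.17 and 3.19.

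PTGFR, the prostaglandin F2α receptor, was low in most libraries and very high in a single one. In epicardial fat of control sheep 98 it reached 308 CPM (952 counts), against 21.2, 2.59 and 2.67 CPM in sheep 131, 132 and 201. Its control values in perirenal fat were 1.56 to 2.45 CPM and in visceral fat 0.416 to 1.64 CPM. The visceral minus epicardial difference of −5.79 ± 1.86 (adjusted p = 0.0527) fell in size to −3.13 (adjusted p = 0.242) without sheep 98. In that library heart muscle transcripts summed to 15017 CPM (at most 3606 CPM in the other 3 control sheep) and smooth muscle and pericyte markers to 936 CPM (598 to 664 CPM). The epicardial library of testosterone sheep 48 had 23558 CPM of heart muscle transcripts, 653 CPM of smooth muscle and pericyte markers and 6.84 CPM of PTGFR. The part of these cells in the PTGFR value was not tested. In subcutaneous fat PTGFR was 4.55, 0.265, 28.6 and 1.82 CPM in control sheep 98, 131, 132 and 201 and 1.31, 22.9, 18.8 and 27.8 CPM in testosterone sheep 48, 185, 233 and 255. Testosterone sheep had more PTGFR in subcutaneous than in visceral fat in 4 of 4 animals (visceral minus subcutaneous −4.01 ± 0.81, adjusted p = 0.0346). That call was lost without sheep 185, 233 or 255, and with no filter on low counts.

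HPGD, which inactivates prostaglandins, was lowest in epicardial fat. Control sheep 98, 131, 132 and 201 had 5.49, 2.05, 0.690 and 2.26 CPM there, from 4 to 17 counts. Subcutaneous fat of the same sheep had 32.6, 9.03, 5.36 and 15.6 CPM. Each control sheep had its lowest HPGD in epicardial fat, and the subcutaneous minus epicardial difference was 2.57 ± 0.46 (adjusted p = 0.000844). Visceral and perirenal fat exceeded epicardial fat by 1.68 ± 0.46 and 1.77 ± 0.47 (adjusted p = 0.017 and 0.0124), and both calls were lost without sheep 131. Testosterone sheep had 1.14 to 5.12 CPM in epicardial and 3.87 to 8.39 CPM in subcutaneous fat, a difference of 0.51 ± 0.41 that did not pass (adjusted p = 0.572).

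Among pairs of depots in control sheep, some genes separated visceral and perirenal from subcutaneous fat and others set epicardial fat apart. Genes of the first kind also had calls against epicardial fat, and PTGES and PTGFR passed in no pair. In control sheep, 4 of 10 differed between visceral and subcutaneous fat (PTGS1, PTGS2, PTGER4 and PTGIR, all higher in visceral fat), where 14% of all genes did. The same 4 were higher in perirenal than in subcutaneous fat, against 23.6% of all genes. Between visceral and epicardial fat 7 differed (21.9% of all genes), between subcutaneous and epicardial fat 5 (23.1%) and between perirenal and epicardial fat 6 (25.2%). PTGIS and PTGDS were higher in epicardial fat in all 3 of these pairs, and HPGD and PTGER3 were lower in all 3. PTGER4 and PTGIR also differed from epicardial fat in visceral and perirenal fat, PTGS1 in visceral fat and PTGS2 in subcutaneous fat. None of the 10 differed between visceral and perirenal fat, where 0.613% of all genes did in edgeR. There, 3 of the 10 had an unadjusted p under 0.05 (12.7% of all genes), and DESeq2 called 1, PTGER4 (1.79% of all genes). The pairs of depots share libraries, so that these counts are not independent of each other.

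In testosterone sheep, 3 of 10 differed between visceral and subcutaneous fat (PTGDS, PTGIR and PTGFR; 0.664% of all genes), 2 between visceral and epicardial fat (PTGER4 and PTGIR; 1.66%) and 2 between subcutaneous and epicardial fat (PTGDS and PTGER3; 4.5%). None passed in edgeR between visceral and perirenal (0.082% of all genes), subcutaneous and perirenal (2.23%) or perirenal and epicardial fat (1.82%). At an unadjusted p under 0.05 these 3 pairs had 4, 5 and 6 of the 10 genes, against 12.1%, 19.8% and 22.2% of all genes. DESeq2 called 1, 1 and 2 of the 10, against 0.856%, 6.42% and 8.26%. Without the subcutaneous library of sheep 48 and the visceral and epicardial libraries of sheep 255, the calls of PTGER4 and PTGIR between visceral and epicardial fat and of PTGDS and PTGER3 between subcutaneous and epicardial fat were kept, and the perirenal to epicardial count was 4 (PTGS1, PTGDS, PTGER3 and PTGER4), where 19.2% of all genes passed. Without them PTGIR was also higher in visceral than in perirenal fat (1.35, adjusted p = 0.0457).

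Control sheep differed from each other in these genes, and for some genes in the same way in each depot. Sheep 132 had the highest PTGS1, PTGIS and PTGER3 of the 4 control sheep in 4 of 4 depots, and the highest PTGS2 in 3 of 4. It had the lowest PTGIR and the lowest PTGES in 3 of 4 depots. Having 1 control sheep highest in all 4 depots applied to 3 of the 10 genes and to 6.8% of 14225 genes over all. Of those 967 genes, sheep 132 was the highest for 418, against 173 to 190 for each other control sheep. Among testosterone sheep no gene of the 10 had 1 animal highest in all 4 depots, where 4.88% of all genes did, and PTGDS was lowest in sheep 48 in 4 of 4. After the mean of each depot and treatment was taken out, PTGS1 correlated with PTGER3 (Pearson r = 0.70) and with PTGIS (r = 0.63) over the 32 libraries. These are descriptions over libraries that share animals, without a test.

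**Figure D4:**
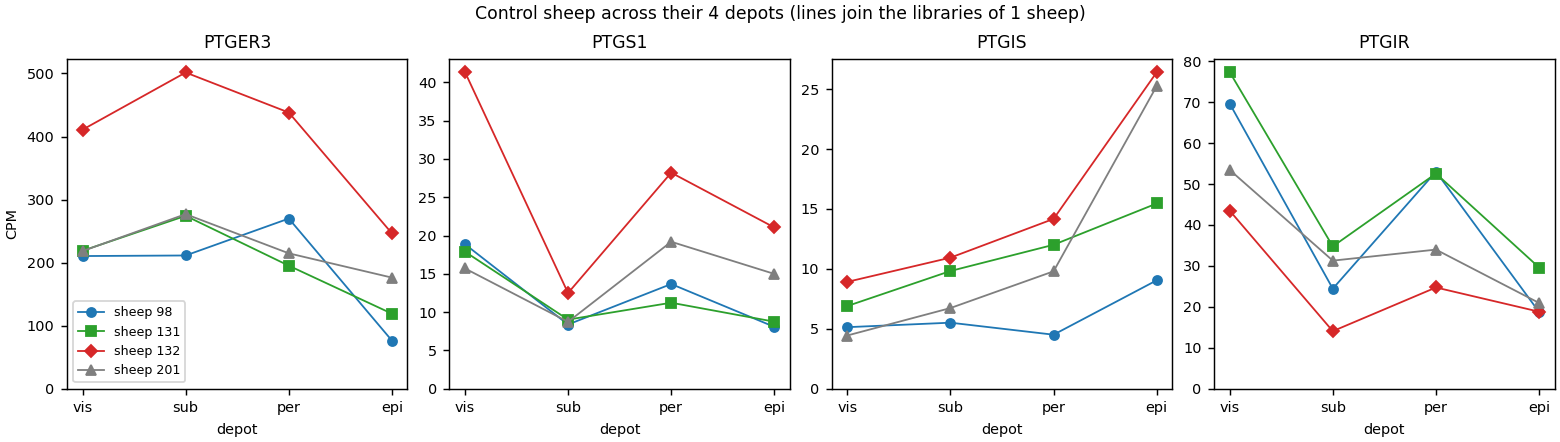
Level in CPM of PTGER3, PTGS1, PTGIS and PTGIR in the 4 control sheep across visceral (vis), subcutaneous (sub), perirenal (per) and epicardial (epi) fat, with a line joining the 4 libraries of 1 sheep. Sheep 132 (red diamonds) is highest in every depot for PTGER3, PTGS1 and PTGIS and lowest in visceral, subcutaneous and perirenal fat for PTGIR.

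Between testosterone and control sheep, none of the 10 genes passed the threshold in any depot. In edgeR's quasi-likelihood test 0 of 9 tested in visceral fat passed (PTGFR was too low there to be tested), and 0 of 10 in subcutaneous, perirenal and epicardial fat. Over all genes, visceral fat gave 0%, subcutaneous fat 0%, perirenal fat 0% and epicardial fat 0%, so that the whole table gave no call at this number of animals. At an unadjusted p under 0.05 there were 2, 1, 1 and 0 of the 10 genes, against 9.42%, 5.11%, 5.37% and 5.65% of all genes. DESeq2 called 22, 6, 11 and 8 genes in the 4 depots, none of them among the 10, of which it gave an adjusted p to 10, 10, 8 and 3. With the counts of the 4 depots summed for each sheep, 0 of the 10 passed (0.00654% of all genes, 1 of 15301). There, 2 had an unadjusted p under 0.05, PTGER4 and PTGS2 (6.8% of all genes), and DESeq2 called 59 genes, again without any of the 10.

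PTGER4 was the gene with the most even difference. Its mean was lower in testosterone than in control sheep in 4 of 4 depots: visceral fat had 153 ± 44.9 against 234 ± 29.8 CPM (SD, n = 4 each), subcutaneous fat 60.8 ± 19.2 against 87.7 ± 23.9, perirenal fat 107 ± 24.8 against 151 ± 36.8 and epicardial fat 60.8 ± 20.7 against 76.3 ± 13.7. How many of all genes kept 1 direction in the 4 depots was not counted. The depots came from the same sheep, so that these PTGER4 differences are not independent of each other. In visceral fat the highest testosterone value, 190 CPM, lay below the lowest control value, 198 CPM. This was the 1 case in which control and testosterone sheep did not overlap in visceral fat (5.48% of all genes), and there was none in subcutaneous (3.21%), perirenal (2.88%) or epicardial fat (3.64%). The visceral difference was −0.60 ± 0.23 (adjusted p = 0.521) and that over the summed depots −0.45 ± 0.15 (adjusted p = 0.664). Summed fat cell markers (8 of 8 genes) moved with it: they ran from 8213 to 30619 CPM in visceral fat of testosterone sheep and from 32302 to 53668 CPM in that of control sheep, again with no overlap. Their part in the visceral differences of PTGER4 and PTGS2 was not tested. The lowest visceral value, 88.3 CPM, came from the library of sheep 255 with abundant intron-rich RNA and the lowest summed macrophage markers of the 8 visceral libraries (320 CPM), and with the lowest fat cell marker sum. Without that sheep the visceral difference was −0.43 (adjusted p = 0.655).

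**Figure D5:**
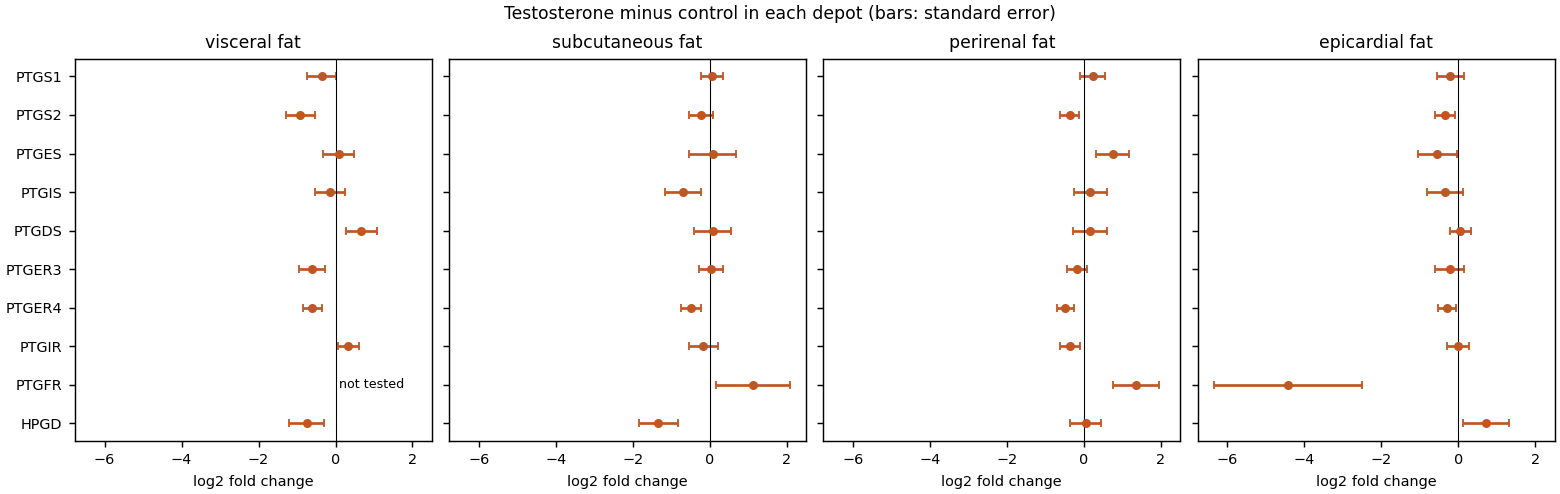
Log2 fold change of each gene between testosterone and control sheep in each depot, with the standard error of the edgeR fit as bars and a vertical line at 0. PTGER4 lies left of 0 in all 4 panels, and PTGFR in epicardial fat, at −4.43 with an SE of 1.92, has 1 control library at 308 CPM.

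PTGS2 also had a lower mean in testosterone sheep in 4 of 4 depots. In visceral fat it was 21.3, 10.4, 12.9 and 6.10 CPM in sheep 48, 185, 233 and 255, against 30.1, 19.7, 33.0 and 14.5 CPM in control sheep 98, 131, 132 and 201. The groups overlapped, and the difference was −0.91 ± 0.37 (adjusted p = 0.521). The lowest value came from 15 counts, in the visceral library of sheep 255 that was rich in intron-rich RNA. The largest difference in subcutaneous fat was in HPGD, at 6.14 ± 1.88 CPM in testosterone and 15.7 ± 12.1 CPM in control sheep (−1.33 ± 0.52, adjusted p = 0.927), and it fell in size to −0.70 without control sheep 98. PTGFR differed by 1.35 ± 0.60 in perirenal fat (adjusted p = 0.921), where testosterone sheep had 1.25 to 10.6 CPM against 1.56 to 2.45 CPM. In epicardial fat its difference of −4.43 ± 1.92 (adjusted p = 0.863) fell in size to −1.15 without control sheep 98. The other 6 genes, PTGS1, PTGES, PTGIS, PTGDS, PTGER3 and PTGIR, had differences within 1 log2 unit in every depot. Of these, PTGDS had a higher mean in testosterone sheep in 4 of 4 depots. The ratios were 1.55, 1.00, 1.12 and 1.01 in visceral, subcutaneous, perirenal and epicardial fat.

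Whether the testosterone difference varied with the depot was tested with the depot by treatment interaction. None of the 10 genes passed in edgeR (0.00703% of all genes, 1 of 14225). At an unadjusted p under 0.05 there were 2, HPGD and PTGFR, both with an adjusted p of 0.994, against 4.61% of all genes. DESeq2 called 9 genes, none of them among the 9 of the 10 to which it gave an adjusted p. The calls made in control sheep and missed in testosterone sheep, or the reverse, were therefore not shown to differ between the treatments.

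The wider pathway was read from 8 lists of 142 other genes, of which 99 were tested in control sheep and 47 differed between depots, in the test that 39.9% of all genes passed. By list, 3 of 10 genes of arachidonate release passed, 4 of 7 other prostanoid synthases, 5 of 7 genes of transport and breakdown, 5 of 8 of the lipoxygenase and epoxygenase branches, 12 of 24 of receptor coupling, 5 of 14 of lipolysis and its inhibiting receptors, and 13 of 23 inflammatory inducers and early response genes. Of the other prostanoid receptors, edgeR called 0 of 6 tested, with 2 at an unadjusted p under 0.05, and DESeq2 called 0 of 11. GNAI1, a Gi subunit, was low in epicardial fat like PTGER3: it stood at 43.3 ± 10.1 CPM there against 261 ± 13 CPM in visceral fat (SD, n = 4 each; visceral minus epicardial 2.57 ± 0.17, adjusted p = 3.86e-08). Testosterone sheep had the same direction (1.70 ± 0.33, adjusted p = 0.0177). SLCO2A1, the prostaglandin transporter, was higher in visceral than in subcutaneous fat of control sheep by 1.65 ± 0.42 (adjusted p = 0.0176) and than in their epicardial fat by 1.99 ± 0.43 (adjusted p = 0.00399). TBXAS1, which makes thromboxane, was higher in visceral than in subcutaneous fat of control sheep by 1.81 ± 0.44 (adjusted p = 0.0125) from a low level of 3.92 ± 0.64 CPM. PLA2G5, a secreted phospholipase, was the 1 gene of these lists that separated visceral from perirenal fat in control sheep (visceral minus perirenal −5.11 ± 0.71, adjusted p = 0.00103). In testosterone sheep 0 of 100 tested genes of these lists did so. SLCO2A1 and TBXAS1 did not pass in the same pairs of testosterone sheep either. PTGR1, a reductase in the later steps of breakdown, was higher in subcutaneous than in epicardial fat of testosterone sheep (1.37 ± 0.26, adjusted p = 0.00871). The other receptors for prostaglandin E2 reached at most 0.223 CPM for PTGER1 and 2.33 CPM for PTGER2 in any library.

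Across the 32 libraries, the named genes whose log2 CPM was most like that of a member were found among 11948 genes. PTGER4 was nearest to WIPF1 (r = 0.88), SLC37A3 (0.87) and LGMN (0.87), and PTGS2 to ADAM17 (0.87). PTGER3 was nearest to ACSL4 (0.83), PTGIR to ROCK2 (0.82), PTGDS to EFEMP2 (0.81), PTGS1 to DMBT1 (0.82) and PTGIS to ADGRD1 (0.80), followed by LAMA2 (0.74) and PDGFRA (0.72). PTGFR was nearest to CST6 (0.75), HPGD to WDR89 (0.74) and PTGES to UTP4 (0.65). After the group means were taken out, SLC37A3 remained among the 3 nearest genes of PTGER4 (0.82), ADAM17 of PTGS2 (0.71), LFNG of PTGIR (0.81) and CST6 of PTGFR (0.83). Within the family, PTGER4 and PTGIR had the highest correlation of the 45 pairs, 0.70 over the 32 libraries, which was 0.11 after the group means were taken out. The points share animals, depots and sequencing depth, and these values are descriptions.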

How the data were processed

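Raw read counts per gene, not normalized, were deposited by the authors for 32 libraries. Per the labels' protocols, RNA with an integrity number of at least 7 went into 3′ end libraries. The submitters' processing notes name featureCounts 1.6.1, STAR, Trimmomatic 0.36, DESeq2 1.24.0, R 3.6.3, MultiQC 0.9 and FastQC 0.11.5, with no role or order. Genome build, annotation and strand setting: not given in the sources used here.

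Counts were tested with edgeR 4.0.16 (R 4.3.3): TMM scaling, filterByExpr with a minimum count of 10, robust quasi-likelihood fits, Benjamini-Hochberg adjustment over all genes tested, FDR under 0.05. SE is the size of the log2 fold change over the square root of F. Levels are CPM on TMM-scaled totals. Treatments were compared within each depot and on counts summed per sheep, and depots within each treatment with the sheep as a block. The block follows the design, in which each sheep gave all 4 depots, and 41 of 48 same-sheep pairs of libraries had correlated deviations over 0.1 (mean 0.23). DESeq2 1.42.0, other size factors, no filter, no block and leaving out each sheep were tried as alternatives. No 2 libraries of a group held identical counts.

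All 10 genes were tested in every comparison, except PTGFR in visceral fat between the treatments. Of their depot differences, each that passed in edgeR with the settings above is given, and only some of those that did not pass. Of the pathway lists, the 5 genes with the largest differences in each direction could be named, and of the genes alike, the 3 with the highest r. The genes and lists were chosen with earlier results of these data known. The low total of 784135 counts makes the subcutaneous library of sheep 48 the least precise.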

Additional observations from a re-analysis of the deposited data

Results flagged for a closer look

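Of 80 groups of 4 values (10 genes in 4 depots and 2 treatments), 9 had 1 value far from the other 3 by Dixon's test of the gap over the range. The cutoff is set to flag about 1 in 20 groups of independent, normally distributed values. These groups hold untransformed CPM and share sheep and libraries, so that rate need not apply to them. Control sheep 132 stood highest in 4 of the 9: PTGS1 at 41.4 CPM in visceral fat (others 15.7 to 18.9) and at 12.5 CPM in subcutaneous fat (others 8.39 to 9.03), PTGER3 at 411 CPM in visceral fat (others 210 to 219) and PTGFR at 28.6 CPM in subcutaneous fat (others 0.265 to 4.55). Control sheep 98 had 308 CPM of PTGFR in epicardial fat, where the others had 2.59 to 21.2 CPM. PTGDS in perirenal fat of control sheep 131 was 90.5 CPM against 41.5 to 44.0 CPM in the others. Among testosterone sheep, PTGES in subcutaneous fat of sheep 48 was 17.1 CPM (others 2.87 to 4.73), in the library with the lowest total, and PTGIR was 35.3 CPM (others 16 to 17.1) in the library labelled epicardial of sheep 255, which held HOXC6 at 95.5 CPM. PTGER4 in perirenal fat of sheep 233 was 70.4 CPM, below the 116 to 122 CPM of the others.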

How the results depend on the processing

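Over 1907 combinations of gene, comparison and alternative, no called difference changed sign, 60 lost their call, 39 gained one, and 89 uncalled differences changed sign. With plain library totals none of 80 levels moved by more than 1 SD. With DESeq2 the number of the 10 genes called was 1 for visceral against perirenal fat in each treatment, and in testosterone sheep 1 for subcutaneous against perirenal, 4 for subcutaneous against epicardial and 2 for perirenal against epicardial fat. Without the low-count filter it was 1 for perirenal against epicardial fat in testosterone sheep. Without 3 libraries (an alternative chosen after seeing the data for the depot fits) it was 1, 1 and 4 in testosterone sheep for visceral against perirenal, subcutaneous against perirenal and perirenal against epicardial fat. The cause of these shifts was not tested.

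With no replicate block, that is without pairing the depots of a sheep, the counts in control sheep were 4 for visceral against epicardial, 2 for subcutaneous against perirenal and 3 for perirenal against epicardial fat. In testosterone sheep they were 3 for any depot, 1 for visceral against subcutaneous and 1 for subcutaneous against epicardial fat. The control calls lost were PTGS1, PTGIS, PTGDS, PTGER3, PTGIR and HPGD in 1 or more pairs.

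Leaving out 1 sheep, and so fitting fewer samples, gave 8 to 9 genes for any depot in control sheep, 3 to 5, 5 to 7, 3 to 5, 5 and 4 to 6 for visceral against subcutaneous, visceral against epicardial, subcutaneous against perirenal, subcutaneous against epicardial and perirenal against epicardial fat. In testosterone sheep it gave 1 to 5 for any depot, 0 to 2 for visceral against subcutaneous, 0 to 2 for visceral against epicardial, 0 to 3 for subcutaneous against epicardial and 0 to 1 for perirenal against epicardial fat. Testosterone effects stayed at 0 of the 10 genes in every alternative run.

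Over all genes, any-depot calls in testosterone sheep were 647, with 1850 in DESeq2, 2427 without the 3 libraries and 95 to 1422 without 1 sheep. For visceral against perirenal fat in control sheep they were 82, with 242 in DESeq2, 128 without the filter, 30 without the block and 35 to 126 without 1 sheep. For visceral against subcutaneous fat in control sheep they were 1867, with 1058 without the block and 756 to 1349 without 1 sheep. The interaction gave 1 gene, with 9 in DESeq2 and 0 without the block. Counting error limits PTGES, PTGFR and HPGD most, which had medians of 22.5, 12.5 and 29 counts per library.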
